A study of Mus musculus with 3 samples.

Results

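The comparison set out here is between the liver of Ercc1-mutant mice and that of wild-type mice, both fed freely, and it rests on 2 of the 3 libraries of the study, chosen by genotype and diet as their labels give them. The Ercc1-mutant library (Ercc1 AL) came from mice of the genotype Ercc1 delta/-, which carry a null allele and a second mutant allele in every cell, and the wild-type library (wt AL) from mice without either. Both groups were fed ad libitum, were aged 16 weeks and shared the mixed background C57BL6J/FVB. Total liver RNA was sequenced after ribosomal RNA had been removed, so that unprocessed nuclear and noncoding transcripts were measured together with messenger RNA. The third library (Ercc1 DR), from Ercc1 delta/- mice of that age under diet restriction, entered the scaling described below and is given beside single genes. The labels do not say how many animals a library holds, nor their sex. With 1 library per group there was no spread between animals to compare a difference with, and every ratio below is between these libraries.

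ERCC1 forms an endonuclease with XPF, the product of Ercc4, which cuts the damaged strand in nucleotide excision repair and helps to unhook crosslinks between strands. When this cut cannot be made, lesions that block RNA polymerase and replication persist, and p53 and checkpoint kinases can be activated. Mice with little ERCC1 are known as a model of accelerated ageing in which the liver is among the most affected organs, and a lowered growth hormone axis and altered lipid handling are known features of such mice.

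Transcript levels were deposited as FPKM, fragments scaled to transcript length and to the number mapped in the library, with a lower and an upper bound for each gene. The difference between libraries is given as the log2 ratio of FPKM + 1 in Ercc1 AL over wt AL. The added 1 draws the ratio of genes at low FPKM towards 0 before centring. The log2 ratio was centred on its median over 9053 genes (1 FPKM or more in every library), which was 0.37. A centred log2 ratio of 0 is therefore the level of the middle gene and not equal FPKM, and as deposited each ratio is 0.37 higher. After centring, genes at low FPKM are thus drawn towards a value below 0 and can read as lower. Genes with at least 1 FPKM numbered 10368 in wt AL and 11799 in Ercc1 AL. Hepatocyte markers were abundant in both libraries, and 13 of 14 summed to 4878 FPKM in wt AL and 6199 FPKM in Ercc1 AL. Rescaled, that is divided by the centring factor of 1.29, the Ercc1 AL sum was 4804 FPKM. The remaining marker, albumin (Alb), had no estimate in either library. The deposited FPKM lay above its own upper bound in 13.9% of 10413 measured protein genes in wt AL and 19.9% in Ercc1 AL. This held for 82.7% of those at 100 FPKM or more in either library.

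Of 12294 genes with at least 1 FPKM in either library, 304 (2.47%) were higher in Ercc1 AL by 2-fold or more and 620 (5.04%) lower. Among the 10413 of them with official protein gene symbols, which are the background for the counts below, 97 (0.932%) were higher and 451 (4.33%) lower. Of the 3372 protein genes at 5 FPKM or more in either library, 2.55% were higher and 7.27% lower, so the background share depends on level. Centring decides which direction prevails, as 17.7% of the protein genes past 2-fold were higher after it and 67.4% as deposited, when 384 (3.69%) were higher and 186 (1.79%) lower. Abundant transcripts were past 2-fold more often than rare ones on this ratio, in which the added 1 compresses the ratios of genes at low FPKM before centring. Of the 202 protein genes at 100 FPKM or more in either library, 6.44% were higher and 11.9% lower, beside 0.30% and 4.01% of the 3668 genes between 2 and 5 FPKM. The median protein gene stood at a log2 ratio of -0.03. The median was -0.12 for the 3373 genes between 1 and 2 FPKM and 0.12 for those between 20 and 100 FPKM. The genes nearest to the threshold were H2-Q8 (1.0) inside and Mybl1 (0.997) outside for the higher genes, and Gdf15 (-1.0) inside and Camta1 (-0.999) outside for the lower genes.

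**Figure D1:**
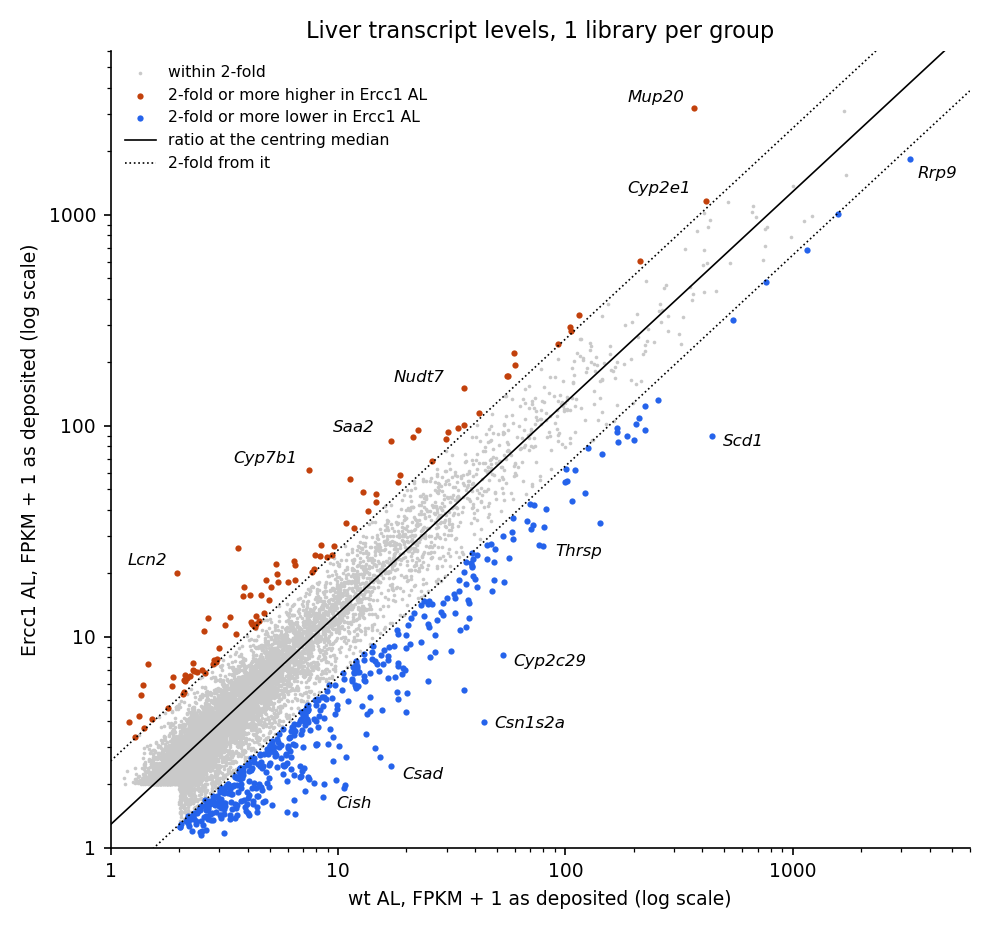
Each point is 1 protein gene, with its FPKM + 1 in wt AL on the x axis and in Ercc1 AL on the y axis, both on log scales, as deposited. The solid line marks the centring median (0.37 on the log2 scale) and the dotted lines a 2-fold distance from it. The 97 genes above the upper line and the 451 below the lower line are coloured, and Lcn2, Mup20 and Cyp7b1 above and Csn1s2a, Csad and Cyp2c29 below lie farthest out among the labelled genes.

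The targeted gene did not separate the libraries. Ercc1 (chr7:19345071-19356524 on mm10) stood at 0.461 FPKM in wt AL with deposited bounds of 0.283 and 0.630, and at 0.573 FPKM in Ercc1 AL with bounds of 0.377 and 0.720. These intervals overlapped, Ercc1 overlaps exons of the antisense gene Cd3eap, and a value summed over the gene does not tell mutant from intact transcripts. Ercc4, which encodes the partner XPF, was at 0.829 and 0.985 FPKM, again with overlapping intervals.

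The pathway list with the lowest median was fatty acid synthesis. Of its 25 measured genes, which make fatty acids or control their making, 12 were lower in Ercc1 AL by 2-fold or more and none was higher. The share lower was 4.33% of all protein genes and 7.27% of those at 5 FPKM or more in either library. The median log2 ratio of the 25 genes was -0.86. As deposited, 7 were lower and 1 higher, and the median was -0.50. Lower genes were found at successive steps from sugar to fatty acids, and they are given in that order.

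Carbon from sugar enters the pathway through fructose and pyruvate. Khk, ketohexokinase, which phosphorylates fructose, stood at 79.4 FPKM in wt AL, 32.1 in Ercc1 AL and 67.8 in Ercc1 DR, a log2 ratio of -1.65. Pklr, the liver pyruvate kinase, was at 27.3 FPKM in wt AL, 12.2 in Ercc1 AL and 14.1 in Ercc1 DR, a log2 ratio of -1.47, and Eno1, the enolase that precedes it, was lower too, at 16.7 against 35.6 FPKM (-1.41). For all 3 genes Ercc1 AL was the lowest library as deposited and its deposited interval lay below that of wt AL. The gluconeogenic genes Pck1 (136 and 194 FPKM, 0.14), G6pc (0.05) and Fbp1 (-0.40) were within 2-fold. In the whole list of 30 genes of gluconeogenesis, glycolysis and glycogen, 3 were lower and 1 higher, and the higher one was Ppp1r3c, a subunit that directs a phosphatase to glycogen (1.57 to 9.7 FPKM, 1.69). As deposited, 3 of this list were lower and 2 higher. Of all protein genes, 4.33% were lower and 0.932% higher after centring.

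Cytosolic acetyl-CoA and reducing power come next. Acly, the lyase that splits exported citrate, was at 17.2 FPKM in wt AL, 9.78 in Ercc1 AL and 28.8 in Ercc1 DR (-1.12), and Acss2, which makes acetyl-CoA from acetate, fell from 12.8 to 4.21 FPKM (-1.77). Me1, the malic enzyme that supplies NADPH, was at 36.6 FPKM in wt AL, 11.2 in Ercc1 AL and 16.2 in Ercc1 DR, a log2 ratio of -1.99. The pentose phosphate genes Tkt, a transketolase, and Pgd, another source of NADPH, lay just inside the threshold at -0.98 and -0.88. The citrate carrier Slc25a1 was within it at -0.55.

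Both acetyl-CoA carboxylases, which commit acetyl-CoA to fat, were lower, with Acaca at 3.97 against 10.1 FPKM (-1.53) and Acacb at 2.08 against 7.0 FPKM (-1.74). Fasn, the fatty acid synthase, was at 13.2 FPKM in wt AL, 6.86 in Ercc1 AL and 12.6 in Ercc1 DR (-1.22). The elongases Elovl5 (68.8 to 41.8 FPKM, -1.07) and Elovl6 (13.2 to 8.08 FPKM, -1.01) were lower as well, while Elovl2 was not past 2-fold at 0.53. The lowest ratio of the list was that of a desaturase. Scd1 (chr19:44394450-44407709), the stearoyl-CoA desaturase, was at 441 FPKM in wt AL, 88.7 in Ercc1 AL and 325 in Ercc1 DR, and its deposited intervals of 421 to 426 FPKM in wt AL and 84.4 to 86.4 FPKM in Ercc1 AL lay far apart. Its log2 ratio was -2.67, beside -2.3 for Scd3 (12.3 to 2.48 FPKM), a related desaturase that could share reads with it, and 0.03 and -0.52 for Fads2 and Fads1, the desaturases of polyunsaturated fatty acids.

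The transcription factors of these enzymes stood near the middle gene at the level of RNA. Srebf1, whose product SREBP1 activates lipogenic genes in response to insulin, was at 3.57 FPKM in wt AL, 5.09 in Ercc1 AL and 9.12 in Ercc1 DR (0.05), and Mlxipl, whose product ChREBP responds to sugar, at 1.92 FPKM in wt AL, 2.89 in Ercc1 AL and 2.79 in Ercc1 DR (0.05). Nr1h3, the oxysterol receptor LXR alpha, was at 0.26. Thrsp, known as Spot 14 and itself a lipogenic target and regulator, was lower at 78.3 FPKM in wt AL, 26 in Ercc1 AL and 25.2 in Ercc1 DR (-1.92). Activities of these factors were not measured.

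**Figure D2:**
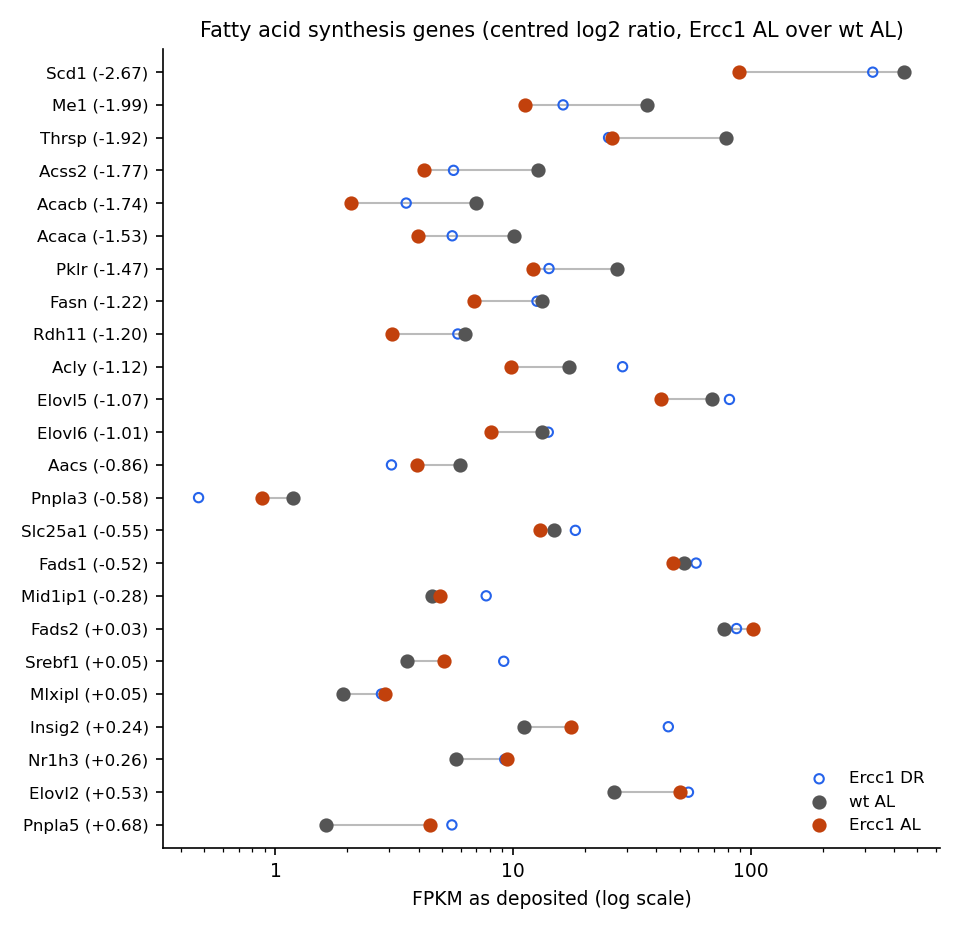
Each row is 1 measured gene of the fatty acid synthesis list, of which 1 within 2-fold is not drawn, with its FPKM as deposited on a log x axis in wt AL (grey), Ercc1 AL (orange) and Ercc1 DR (open blue), and its centred log2 ratio of Ercc1 AL over wt AL in brackets. The 12 genes from Scd1 to Elovl6 are at least 2-fold lower in Ercc1 AL after centring, and 7 of the list are as deposited.

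Promoters of this list were read for CCAAT, the letters bound by the factor NF-Y that acts together with SREBP, on both strands in the 250 bases before each start site. At least 1 match was found in 14 of the 22 genes with an entry in the RefSeq promoter table (63.6%), beside 37.5% of all 27025 genes in that table and 33.8% of its 32851 windows. Fasn and Thrsp are shown, as lower genes with several matches, because they let the positions be compared. The sequences are RefSeq's on the build GRCm38.p6, both from the minus strand and written 5′ to 3′, at chr11:120824548-120824797 for Fasn and chr7:97417551-97417800 for Thrsp. Capitals mark CCAAT or its reverse complement ATTGG.
Fasn: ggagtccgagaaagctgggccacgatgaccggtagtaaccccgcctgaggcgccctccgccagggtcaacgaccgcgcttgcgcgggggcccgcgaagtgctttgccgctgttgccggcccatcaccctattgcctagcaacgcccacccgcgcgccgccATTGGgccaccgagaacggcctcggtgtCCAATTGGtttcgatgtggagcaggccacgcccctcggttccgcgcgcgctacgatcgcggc
Thrsp: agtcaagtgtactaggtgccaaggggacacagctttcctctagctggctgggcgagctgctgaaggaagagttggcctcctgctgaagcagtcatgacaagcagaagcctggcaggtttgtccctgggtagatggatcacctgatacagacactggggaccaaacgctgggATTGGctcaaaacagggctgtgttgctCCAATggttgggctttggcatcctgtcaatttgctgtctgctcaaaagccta
The matches in Fasn begin 90, 62 and 59 bases before the start site and the last pair overlaps, and those in Thrsp begin 79 and 52 bases before it. A match describes the letters only. Genes of the list that were not lower also held matches, among them Srebf1, Mlxipl and Insig2.

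Neighbouring branches of lipid metabolism moved little. Of 30 genes of triglyceride synthesis and lipid droplets, 1 was lower and none higher (median -0.02, and 0.35 as deposited). It was G0s2, which encodes an inhibitor of the lipase that opens lipid droplets, at 23.9 FPKM in wt AL, 5.17 in Ercc1 AL and 9.95 in Ercc1 DR (-2.38). Of 25 genes of cholesterol synthesis and uptake, Fdps, the farnesyl diphosphate synthase, was the only one past 2-fold (29.1 to 14.3 FPKM, -1.34). Of 34 genes of fatty acid oxidation and ketogenesis, 2 were lower and none higher (median 0.05). These were Acaa1b, a peroxisomal thiolase (69.3 to 31.5 FPKM, -1.48), and Fgf21, a secreted hormone of fasting (2.76 to 0.932 FPKM, -1.33). Cpt1a, the gate of mitochondrial oxidation, lay just inside the threshold on the other side, at 13.1 FPKM in wt AL, 34.2 in Ercc1 AL and 55.5 in Ercc1 DR (0.95).

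Male-biased liver genes had the highest median of the pathway lists. Growth hormone, released in pulses in males and more evenly in females, sets the sex bias of many liver genes through STAT5. The labels do not give the sex of the animals, and its part in these ratios was not tested. The 7 measured protein genes of chromosome Y had a median log2 ratio of 0.16, with none past 2-fold. Of 19 measured male-biased genes 9 were higher in Ercc1 AL by 2-fold or more and 2 were lower. The share higher was 0.932% of all protein genes and 2.55% of those at 5 FPKM or more in either library. The 19 genes had a median log2 ratio of 0.85, and as deposited 12 were higher and 2 lower. Mup1, Mup2, Mup7 and Egfr of this list had an estimate in wt AL but not in Ercc1 AL, and were not counted. Mup20 (chr4:62050235-62054117), which encodes the urinary pheromone darcin, was at 368 FPKM in wt AL, 3205 in Ercc1 AL and 516 in Ercc1 DR (2.75). Cyp7b1, an oxysterol hydroxylase, was at 6.42 FPKM in wt AL, 61 in Ercc1 AL and 11.4 in Ercc1 DR (2.7), and Nudt7, a peroxisomal hydrolase of coenzyme A, at 34.8 FPKM in wt AL, 151 in Ercc1 AL and 27.7 in Ercc1 DR (1.71). In all 3 genes Ercc1 AL was the highest library by a wide margin and its interval lay above that of wt AL. The rest of the higher group were Selenbp2 (10.3 to 55 FPKM, log2 ratio 1.94), Ugt2b1 (21.4 to 95 FPKM, log2 ratio 1.73), the complement gene C6 (13.7 to 46.7 FPKM, log2 ratio 1.33), the elongase Elovl3 (3.34 to 11.6 FPKM, log2 ratio 1.17), Mup21 (212 to 606 FPKM, log2 ratio 1.14) and the steroid dehydrogenase Hsd3b5 (3.17 to 10.5 FPKM, log2 ratio 1.09). Of these 9 genes Nudt7 alone had both FPKM values inside their own deposited intervals. The lower members were the fatty acid hydroxylases Cyp4a12a and Cyp4a12b, with Cyp4a12a at 33.4 FPKM in wt AL, 9.82 in Ercc1 AL and 0.462 in Ercc1 DR (-2.04) and Cyp4a12b at -1.38. Cyp2d9, a classical male-biased cytochrome, was within 2-fold (97.6 and 119 FPKM, -0.09). The Mup, Ugt2b and Cyp4a12 genes each have near-identical copies, so that single members are uncertain.

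Major urinary proteins are abundant secreted products of male mouse liver. Of the 10 protein genes with the largest gain in FPKM after centring, 7 were of this family, with Mup20 first and Mup3 next (1678 to 3114 FPKM, 0.52). Mup9, Mup12, Mup8 and Mup13 stood at log2 ratios of 0.96, 0.78, 0.76 and 0.77, which are inside the threshold. A further 8 members (Mup1, Mup2, Mup7, Mup10, Mup11, Mup14, Mup15 and Mup19) had an estimate in wt AL but not in Ercc1 AL. The remaining gains were of Cyp2e1 (415 to 1164 FPKM, 1.12), Sepp1, the plasma selenoprotein (0.68), and Ahsg, fetuin A (0.68).

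Of 18 measured female-biased genes, 4 were lower and 1 higher, with a median log2 ratio of -0.43 (-0.06 as deposited, with 3 lower and 2 higher). Of all protein genes, 4.33% were lower and 0.932% higher after centring. Cyp2b9, a female-biased cytochrome, was at 5.47 FPKM in wt AL, 0.444 in Ercc1 AL and 16.1 in Ercc1 DR (-2.53). Here Ercc1 AL was the lowest library and Ercc1 DR the highest. Also lower were the acyl-CoA thioesterase Acot3 (6.99 to 2.12 FPKM, log2 ratio -1.73), the plasma protein A1bg (2.61 to 0.433 FPKM, log2 ratio -1.7) and Cyp3a16 (10.7 to 6.22 FPKM, log2 ratio -1.06), and the higher one was Cyp2c69 (7.94 to 22.8 FPKM, log2 ratio 1.05).

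The growth hormone and IGF1 axis itself had 1 member higher and 1 lower of 21 (median -0.22, and 0.15 as deposited). Cish (chr9:107296689-107301961), a STAT5 target that feeds back on cytokine receptors, was at 9.73 FPKM in wt AL, 0.981 in Ercc1 AL and 4.94 in Ercc1 DR (-2.81), and its interval in Ercc1 AL (0.791 to 1.13 FPKM) lay far below that in wt AL (8.47 to 9.59 FPKM). Antisense genes overlap Cish, and strand use in the counting is not given in the sources used here. Socs2, another STAT5 target and feedback inhibitor, was within 2-fold (6.5 and 5.88 FPKM, -0.49). So were the receptor Ghr (59.6 and 57.6 FPKM, -0.42), the hormone Igf1 (19.2 and 27.6 FPKM, 0.14), its binding partner Igfals (-0.39) and Stat5b (0.14). Igfbp2, an IGF binding protein, was higher at 7.44 FPKM in wt AL, 26.2 in Ercc1 AL and 96 in Ercc1 DR (1.32), whereas Igfbp1 was not past the threshold (-0.56). Of the 19 genes of this list in the RefSeq table, 4 held the STAT5 consensus TTCNNNGAA on either strand within 250 bases before a start site (Prlr, Socs3, Igfals and Bcl6), beside 8.13% of all genes, and no match was in the window of Cish.

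**Figure D3:**
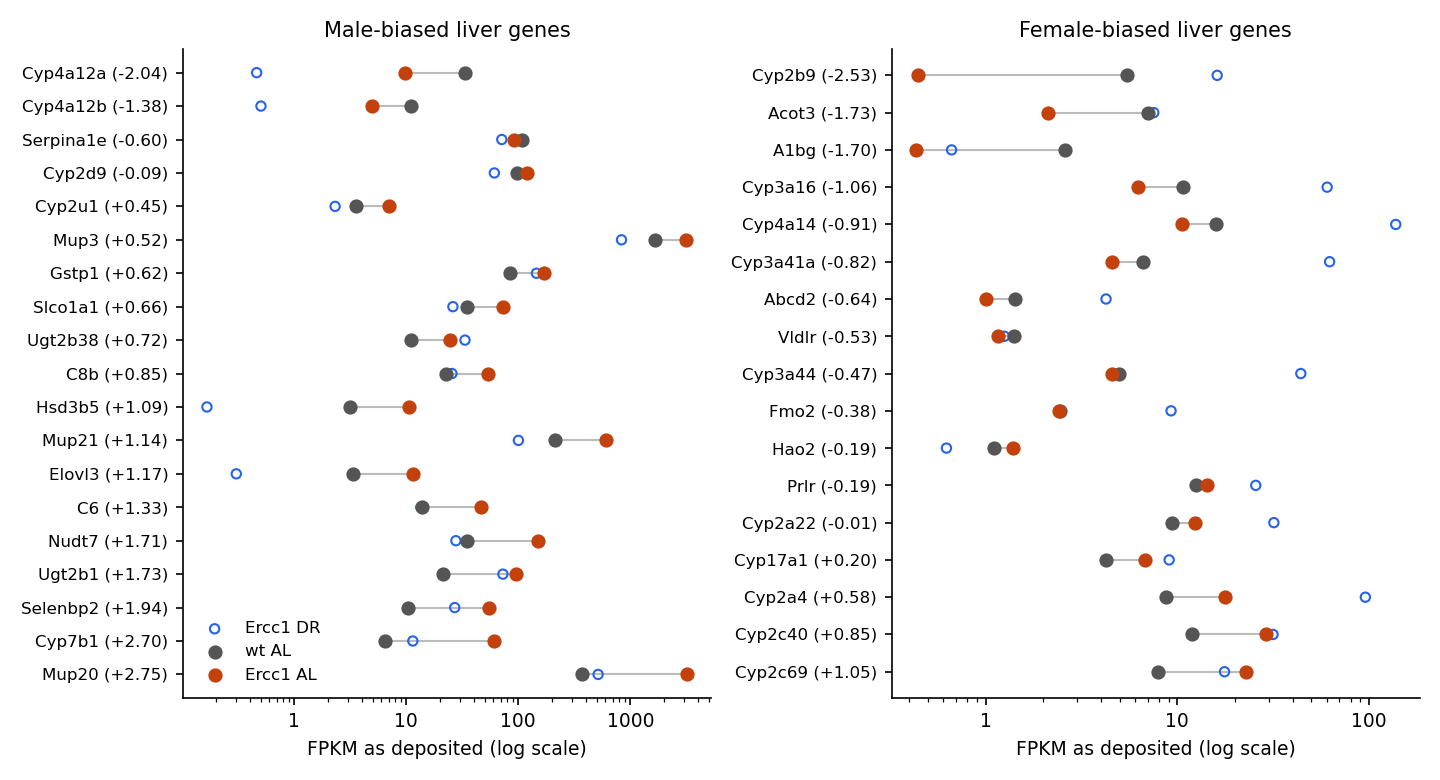
Each row is 1 measured male-biased (left) or female-biased (right) gene, with 1 female-biased gene within 2-fold not drawn. It gives FPKM as deposited on a log x axis in wt AL (grey), Ercc1 AL (orange) and Ercc1 DR (open blue), and the centred log2 ratio of Ercc1 AL over wt AL in brackets. Of the male-biased genes 9 of 19 are at least 2-fold higher and 2 lower in Ercc1 AL, and of the female-biased genes 4 of 18 are lower and 1 higher (12 and 2, and 3 and 2, as deposited).

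The p53 pathway was the response most directly tied to unrepaired DNA by its known biology, and few of its genes were past 2-fold after centring. Of 12 measured targets of growth arrest and feedback 1 was higher, beside 0.932% of all protein genes, and none lower (median -0.07). As deposited 2 were higher, beside 3.69% of all protein genes, and the median was 0.30. The gene higher after centring was Ccng1, cyclin G1, at 4.38 FPKM in wt AL, 19 in Ercc1 AL and 17.8 in Ercc1 DR (1.52). Cdkn1a, the cell cycle inhibitor p21, lay inside the threshold at 6.72 FPKM in wt AL, 16.3 in Ercc1 AL and 30.8 in Ercc1 DR (0.79), and Mdm2, the ligase that removes p53, was at 4.16 and 4.56 FPKM (-0.26). For Ccng1 and Cdkn1a both mutant libraries were above wt AL.

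Of 10 targets of cell death 1 was higher, beside 0.932% of protein genes, and none lower. The median was 0.26 (0.63 as deposited, when 3 were higher and none lower). Phlda3, which opposes AKT at the membrane, was at 0.332 FPKM in wt AL, 3.22 in Ercc1 AL and 0.984 in Ercc1 DR (1.3). Eda2r, a death receptor of the TNF family, was just inside the threshold at 0.74 FPKM in wt AL, 3.36 in Ercc1 AL and 1.18 in Ercc1 DR (0.96), followed by Trp53inp1 (3.99 to 9.97 FPKM, 0.77) and Bax (3.12 to 5.82 FPKM, 0.36), which opens the mitochondrial membrane. The receptor Fas (-0.18) and the BH3-only gene Bbc3 (-0.10) were near the middle gene. Among 10 targets of metabolism and repair 1 was lower and none higher (median -0.01, and 0.36 as deposited, when 1 was higher and none lower). The lower gene was Gdf15, a stress hormone, at 9.48 FPKM in wt AL, 5.75 in Ercc1 AL and 7.43 in Ercc1 DR (-1.0), and it was inside the threshold as deposited.

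None of 23 measured genes of nucleotide excision repair was past 2-fold, and their median was -0.0045 (0.36 as deposited). The largest difference was of Rad23b, a partner of the damage sensor XPC (5.29 to 11.7 FPKM, 0.65), and Ercc5, which encodes the endonuclease XPG, was at 0.25. None of 14 genes of end joining and base excision repair was past it either. Of 18 genes of crosslink and recombination repair, the other pathway of ERCC1, 15 were below the middle gene, and their median was -0.14 (0.23 as deposited). Past 2-fold was 1, the lower gene Rad54l, a recombination motor protein (2.72 to 1.38 FPKM, -1.01), and Brca2 was just inside on the other side (1.25 to 4.64 FPKM, 0.96).

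Of 17 genes of checkpoint signalling, Cdc25c, a phosphatase of mitotic entry, was higher (12.6 to 38.6 FPKM, 1.17), and Cdc25a was lower (1576 to 1004 FPKM, -1.02). Both stood above the replication factor Pcna, at 3.18 and 5.79 FPKM (0.33). Cdc25a was within 2-fold as deposited, and it holds the small RNA gene Mir7089, whose part in the value was not tested. In the list of 13 genes of replication and mitosis 1 was higher and 1 lower, Ccnd1, cyclin D1 (1.86 to 6.79 FPKM, 1.08), and Mcm2, a helicase subunit (12 to 5.28 FPKM, -1.42), and the helicase subunit Mcm7 was at 0.78. Of 16 genes of senescence and its secretome none was higher and 2 were lower, Gdf15 and the collagenase Mmp13 (1.51 to 0.342 FPKM, -1.27).

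The list of acute phase genes, most of them for proteins that hepatocytes secrete during inflammation, also holds metallothioneins and cytokine receptors. It had 5 members higher and none lower of 33, with a median log2 ratio of 0.34. The share higher was 0.932% of protein genes and 2.55% of those at 5 FPKM or more in either library. As deposited 9 of the 33 were higher and none lower. Lcn2, lipocalin 2, which withholds iron from bacteria, was at 0.959 FPKM in wt AL, 19.1 in Ercc1 AL and 22 in Ercc1 DR, the highest ratio of the protein genes ranked (2.99). Saa2, a serum amyloid, was at 16.1 FPKM in wt AL, 84.2 in Ercc1 AL and 3.5 in Ercc1 DR (1.95), and its near copy Saa1 at 171 against 54.2 FPKM (1.27). The metallothioneins Mt1 and Mt2, which bind zinc and copper, were at 87.9 against 20.3 FPKM (1.7) and 172 against 55.1 FPKM (1.26). Lcn2 and the metallothioneins were high in both mutant libraries, while the serum amyloids were high in Ercc1 AL alone of the 3. For these 5 genes at least 1 FPKM lay outside its own deposited interval.

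Other positive acute phase proteins were within 2-fold. Serpina3n was at 0.89, Orm2 at 0.71 and haptoglobin (Hp) at 0.39, whereas the fibrinogen genes Fga (-0.44), Fgb (-0.20) and Fgg (-0.45) and complement C3 (-0.29) were below the middle gene after centring and not as deposited, except that Fga and Fgg were below 0 in both. None of 13 negative acute phase genes was past the threshold. None of 35 genes of interferon response and antigen presentation was past it, with a median of -0.22 (0.15 as deposited), and the antiviral gene Mx2 was the lowest (-0.98).

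Iron and heme genes had a median of 0.33, and 0.70 as deposited, when 7 were higher. After centring 3 of 32 were higher and none lower, beside 0.932% of protein genes higher. Besides Lcn2 these were Alas2, the erythroid enzyme that starts heme synthesis, at 3.1 FPKM in wt AL, 14.8 in Ercc1 AL and 2.5 in Ercc1 DR (1.57), and Ppox, a later enzyme of the pathway (3.13 to 10.7 FPKM, 1.14). Alas2 overlaps the antisense gene Apex2. Alas1, the enzyme that starts heme synthesis in hepatocytes, was at -0.60. Bmp6 (2.8 to 8.09 FPKM, 0.89), its target Id1 (0.94) and the iron hormone hepcidin, Hamp (65.7 to 148 FPKM, 0.79), which BMP6 induces, were all inside the threshold on the higher side. Smad6, an inhibitor of BMP signals outside this list, was lower instead (546 to 318 FPKM, -1.14). The part of BMP6 in these values was not tested.

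Secreted hormones went both ways, with 3 of 36 higher and 4 lower, beside 0.932% and 4.33% of protein genes. Their median was -0.06, and 0.30 as deposited. Lower were the lipase inhibitor Angptl4 (31.3 to 14.9 FPKM, log2 ratio -1.39), Fgf21, Gdf15 and the activin subunit Inhba (3.14 to 1.36 FPKM, log2 ratio -1.18), and as deposited 1 of the list was. Higher were Igfbp2, Enho (1.1 to 5.25 FPKM, log2 ratio 1.2), which encodes adropin, and Tsku (8.61 to 26 FPKM, log2 ratio 1.12), which encodes tsukushi.

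The unfolded protein response, by which the endoplasmic reticulum calls for chaperones, had 1 member higher and none lower of 35 (median 0.25, and 0.62 as deposited, when 3 were higher). Dnajb9, a cochaperone, was at 3.84 FPKM in wt AL, 17.7 in Ercc1 AL and 12.2 in Ercc1 DR (1.58), with an FPKM outside its own interval. Hspa5, the chaperone BiP, was just inside the threshold at 53.9 FPKM in wt AL, 138 in Ercc1 AL and 105 in Ercc1 DR (0.97), and Hsp90b1 was at 46.9 and 91.1 FPKM (0.58). The sensors Ern1 (-0.26) and Atf6 (-0.16) and the factors Xbp1 (-0.34) and Atf4 (-0.41) were below the middle gene after centring and at or above 0 as deposited, apart from Atf4.

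The promoters of this list were read for the endoplasmic reticulum stress element, CCAAT followed after any 9 bases by CCACG, which ATF6 binds together with NF-Y and which holds the CCAAT letters above. On either strand within 250 bases before a start site it was found in 9 of the 29 genes with a RefSeq promoter (31.0%), beside 0.130% of all 27025 genes and 0.113% of the windows. Hspa5 and Hsp90b1 are printed because they are the genes with the element whose ratios were highest. Their windows are chr2:34771840-34772089 on the plus strand and chr10:86705445-86705694 on the minus strand of GRCm38.p6, written 5′ to 3′, with the element or its reverse complement in capitals.
Hspa5: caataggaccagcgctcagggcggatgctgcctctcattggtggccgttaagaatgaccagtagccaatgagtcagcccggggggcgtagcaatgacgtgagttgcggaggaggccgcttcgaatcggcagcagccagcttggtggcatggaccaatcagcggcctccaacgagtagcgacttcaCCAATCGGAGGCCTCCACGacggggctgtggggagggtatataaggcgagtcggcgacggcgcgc
Hsp90b1: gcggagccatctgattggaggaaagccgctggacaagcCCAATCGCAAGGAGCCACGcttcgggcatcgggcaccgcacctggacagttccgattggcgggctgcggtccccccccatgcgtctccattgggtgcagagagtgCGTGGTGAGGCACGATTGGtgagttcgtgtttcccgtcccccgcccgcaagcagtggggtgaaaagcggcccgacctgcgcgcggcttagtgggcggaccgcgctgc
The element begins 65 bases before the start site of Hspa5, and 212 and 107 bases before that of Hsp90b1. The other carriers were Creld2 (0.48), Dnajc3 (0.37), Syvn1 (0.34), Canx (0.29), Pdia6 (0.24), Derl3 (0.14) and Calr (0.12). The 9 carriers had log2 ratios above 0, as had 26 of all 35 measured members of the list and 46.9% of all genes. None of the 9 reached 2-fold, and Dnajb9, which did, was not among them.

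Of 20 heat shock chaperone genes 1 was lower, the small chaperone Hspb1 (38 to 23.9 FPKM, log2 ratio -1.01), and none higher, and none of 33 genes of the NRF2 response and glutathione was past 2-fold (medians 0.19 and 0.12). Of 22 glucocorticoid response genes 3 were higher (0.932% of protein genes) and 3 lower (4.33%). Lcn2, Mt1 and Mt2 were higher, and Angptl4, the p38 activator Gadd45g (6.18 to 3.21 FPKM, log2 ratio -1.14) and the EGF receptor inhibitor Errfi1 (100.02 to 61.3 FPKM, log2 ratio -1.07) were lower, and as deposited 6 were higher and 1 lower. Of 16 abundant noncoding RNAs the imprinted transcript Rian (0.627 to 5.82 FPKM, log2 ratio 1.7) was higher and Dancr (21.1 to 13.1 FPKM, log2 ratio -1.02) lower.

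Bile acid genes had a median of 0.34, and 0.70 as deposited, when 7 were higher. After centring 3 of 30 were higher and none lower, beside 0.932% of protein genes higher. Apart from Cyp7b1 they were Nr0b2, the repressor SHP (1.23 to 5.56 FPKM, 1.19), and Abcg5, one part of the sterol exporter of the bile canaliculus (2.54 to 9.31 FPKM, 1.17). Its partner Abcg8 was at 0.61 and the bile acid receptor Nr1h4 (FXR) at 0.70. Cyp7a1, the rate-limiting enzyme of bile acid synthesis, was at 12.7 and 20.3 FPKM (0.27), and Cyp8b1 at -0.44. Of the 3 higher genes 1 was so with a pseudocount of 5, and none had both FPKM values inside their own intervals.

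Xenobiotic enzymes had a median of 0.27, and as deposited 11 were higher and 4 lower. After centring they split, with 5 of 40 higher and 5 lower, beside 0.932% and 4.33% of protein genes. The lower ones were all cytochromes, Cyp2c29 (52.2 to 7.19 FPKM, log2 ratio -3.07) and Cyp3a11 (125 to 77.2 FPKM, log2 ratio -1.05), which the receptors CAR and PXR are known to induce, and Cyp2b9, Cyp2c38 (6.42 to 1.13 FPKM, log2 ratio -2.17) and Cyp2c39 (12.4 to 3.33 FPKM, log2 ratio -2.0). The higher ones were Ugt2b1, Cyp2e1, the sulfotransferase Sult1d1 (9.82 to 33.6 FPKM, log2 ratio 1.31), Cyp2c70 (29.5 to 93 FPKM, log2 ratio 1.26), which hydroxylates bile acids in the mouse, and Ugt2b35 (8.4 to 23.5 FPKM, log2 ratio 1.01). The receptors themselves, Nr1i3 (CAR, -0.50) and Nr1i2 (PXR, 0.69), were within 2-fold. Cyp2c and Ugt2b genes have close copies and single members are uncertain. Over genes with both FPKM values inside their own deposited intervals, none of this list was higher and 2 were lower.

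Hepatocytes differ along the liver lobule, from the portal to the central vein. Of 33 pericentral genes 4 were higher and 1 was lower (median 0.26, and 0.63 as deposited). The share higher was 0.932% of protein genes and 2.55% of those at 5 FPKM or more in either library. Higher were Rnase4 (58.6 to 221 FPKM, 1.53), Gulo (17.3 to 52.9 FPKM, log2 ratio 1.19), Rgn (103 to 294 FPKM, log2 ratio 1.13) and Cyp2e1, and Cyp2c29 was lower. None of the 4 had both FPKM values inside their own intervals. Rnase4 shares exonic sequence with Ang, which was at 1.55. Of 39 periportal genes 1 was higher, the cationic amino acid transporter Slc7a2 (4.07 to 16.2 FPKM, log2 ratio 1.39), and 1 lower, the lipid transporter Mfsd2a (8.16 to 4.88 FPKM, log2 ratio -1.01) (median 0.14, and 0.50 as deposited). Among 32 hepatocyte transcription factors Nr0b2 was higher and Foxa2 (5.0 to 2.05 FPKM, log2 ratio -1.34) lower, and Hnf4a, the master factor of hepatocytes, was at 23.7 and 38.6 FPKM (0.31).

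Of 60 genes of amino acid breakdown and the urea cycle 1 was higher and 1 lower, with a median of 0.27 (0.64 as deposited, when 14 were higher and 1 lower). Agxt, the aminotransferase that detoxifies glyoxylate, was at 5.41 FPKM in wt AL, 21.8 in Ercc1 AL and 67.4 in Ercc1 DR (1.46), with an FPKM outside its own interval. Csad, the decarboxylase on the way to taurine, was at 16.2 FPKM in wt AL, 1.44 in Ercc1 AL and 1.19 in Ercc1 DR (-3.19), with both mutant libraries low. Csad shares exonic sequence with the antisense gene Zfp740. The taurine pathway also includes Cdo1, which feeds Csad and was within 2-fold (69.98 and 130.1 FPKM, 0.52), and Cps1, the first urea cycle enzyme, was at 0.34.

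Immediate early genes, which are switched on within minutes by growth factors and stress, had 4 members lower and none higher of 22 (median -0.36). The share lower was 4.33% of all protein genes. As deposited 1 was lower and the median was 0.01, and with a pseudocount of 5 in place of 1 none was lower. The 4 were the zinc finger gene Klf6 (4.84 to 1.47 FPKM, log2 ratio -1.61), the growth regulator Myc (3.05 to 1.07 FPKM, log2 ratio -1.34), Egr1 (2.6 to 0.985 FPKM, log2 ratio -1.23) and Junb (5.86 to 3.39 FPKM, log2 ratio -1.01). The stress phosphatase Dusp1 (-0.90) and Fos (-0.75) were inside the threshold, and Jun was at 8.72 and 8.55 FPKM (-0.39).

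Clock genes had 3 of 25 lower and none higher, beside 4.33% of all protein genes lower. Their median was -0.16, and 0.21 as deposited, when 1 was lower and 1 higher. With a pseudocount of 5 none was lower. The 3 were the activators Clock (12.1 to 5.16 FPKM, log2 ratio -1.46) and Npas2 (2.21 to 0.973 FPKM, log2 ratio -1.07) and the repressor Nfil3 (4.71 to 2.65 FPKM, log2 ratio -1.01). Their partner Arntl (BMAL1, -0.16), the repressors Per2 (-0.31) and Cry1 (-0.08) and the output gene Dbp (1.22 and 1.25 FPKM, -0.35) were within 2-fold. The labels do not give the hour at which the livers were taken.

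Ribosomal protein genes were mostly above the middle gene, by less than 2-fold. Their median log2 ratio was 0.44, and 74 of 78 were above 0, beside 46.9% of all protein genes. As deposited 22 were higher, and after centring 3 were past 2-fold on the higher side and none on the lower. The higher ones were the paralogue Rpl22l1 (5.5 to 21 FPKM, log2 ratio 1.39), Rps27 (34.8 to 99.96 FPKM, log2 ratio 1.13) and Rps10 (25 to 66.8 FPKM, log2 ratio 1.02). Rpl38 was the lowest at 315 and 271 FPKM (-0.58). Ribosomal protein genes have many processed copies, which could share reads with them. The 31 proteasome subunit genes had a median of 0.26 with none past the threshold, as deposited either, and the 56 nuclear genes of the respiratory chain had a median of 0.02 with 1 lower, Atp5g1, a subunit of the ATP synthase ring (71.3 to 32.9 FPKM, -1.46).

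**Figure D4:**
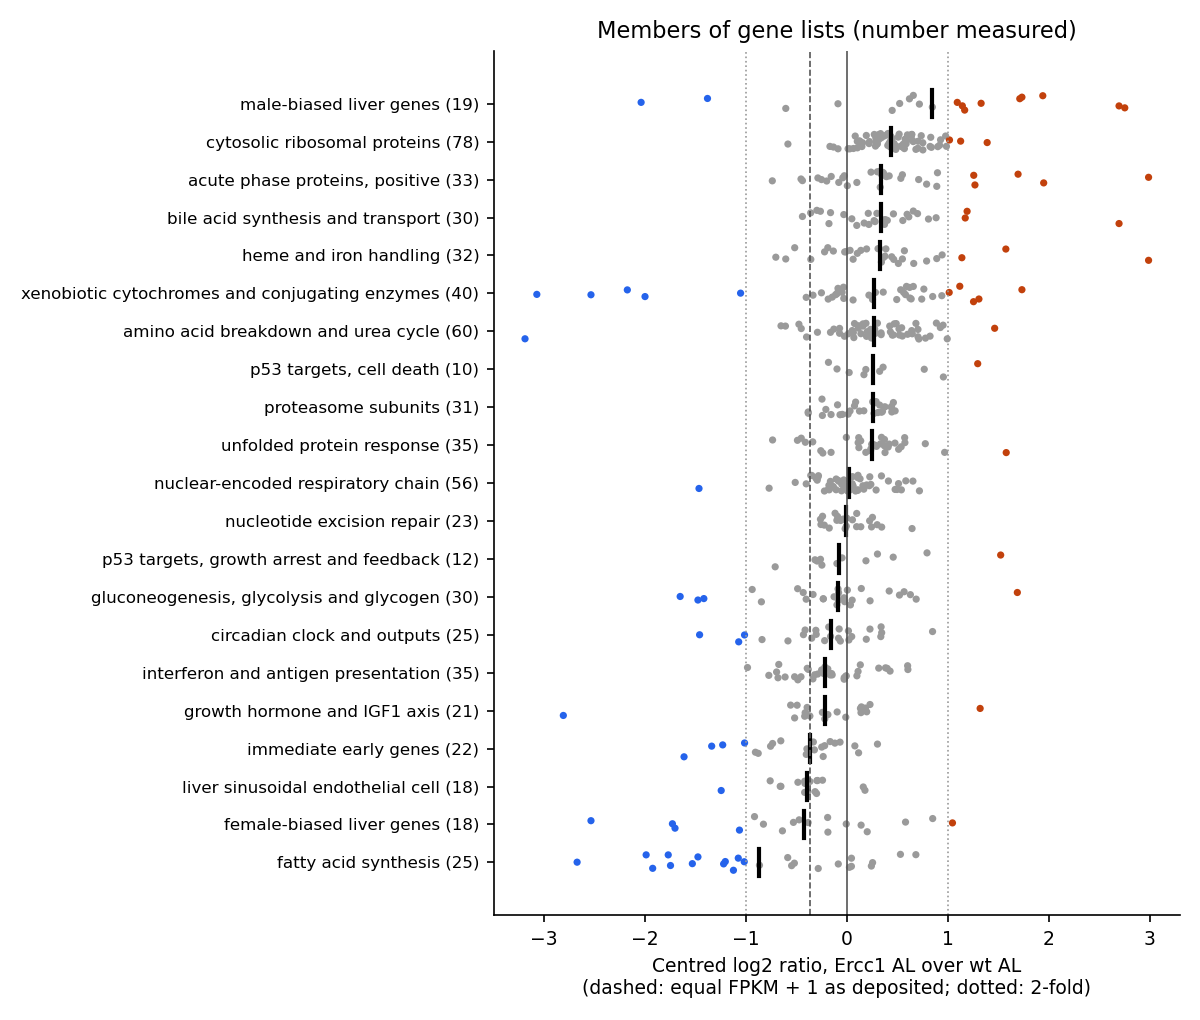
Each point is 1 measured member of a gene list, placed on the x axis by its centred log2 ratio of FPKM + 1 in Ercc1 AL over wt AL, and the black bars are list medians. The solid line is the middle gene, the dashed line equal values as deposited (-0.37) and the dotted lines mark 2-fold. Pathway medians run from -0.86 for fatty acid synthesis to 0.85 for male-biased genes, and every median between the dashed and the solid line is below 0 after centring and above 0 as deposited.

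Further genes with the highest ratios had other roles. Gpcpd1, a phosphodiesterase of choline lipids, was at 2.88 FPKM in wt AL, 16.2 in Ercc1 AL and 77.3 in Ercc1 DR (1.78), and Rapgef4, a cAMP-responsive exchange factor, at 4.33 FPKM in wt AL, 21.1 in Ercc1 AL and 34.4 in Ercc1 DR (1.68). F11, coagulation factor XI, was at 2.81 FPKM in wt AL, 14.6 in Ercc1 AL and 23 in Ercc1 DR (1.66). In these 3 genes both mutant libraries stood above wt AL. Arhgap25, a GTPase-activating protein, was instead high in Ercc1 AL only (1.68, 11.3 and 2.21 FPKM in wt AL, then Ercc1 AL, then Ercc1 DR, 1.84), as was Tnp1, a spermatid protein that overlaps an antisense gene (2.65, 25.3 and 6.52 FPKM, 2.48). Amd1, the decarboxylase that supplies aminopropyl groups for polyamines, was higher (0.453 to 6.45 FPKM, 1.99) while its near copy Amd2 was at -0.95, and the pair could share reads.

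Several of the genes with the lowest ratios belong to tissues other than liver. Csn1s2a, a milk casein, was at 43 FPKM in wt AL, 2.96 in Ercc1 AL and 0.563 in Ercc1 DR (-3.84). Cartpt, which encodes a neuropeptide, was at 14.4 FPKM in wt AL, 1.69 in Ercc1 AL and 0.439 in Ercc1 DR (-2.88), and Odam, a protein of enamel-forming cells, at 18.8 FPKM in wt AL, 3.4 in Ercc1 AL and 1.66 in Ercc1 DR (-2.54). In all 3 genes wt AL was the highest library and Ercc1 DR the lowest. Others among the lowest were Trim50 (9.64 to 0.928 FPKM, log2 ratio -2.83), the metalloprotease Adam33 (13.6 to 1.96 FPKM, log2 ratio -2.67), Lhfpl3 (8.77 to 1.09 FPKM, log2 ratio -2.59), the kallikrein Klk1b27 (7.68 to 1.01 FPKM, log2 ratio -2.48), the nicotinic receptor gene Chrna10 (6.84 to 1.04 FPKM, log2 ratio -2.31), the receptor Gpr63 (6.13 to 0.855 FPKM, log2 ratio -2.31) and Efcab10 (7.61 to 0.745 FPKM, log2 ratio -2.67). Rgs16, which shortens G protein signals, was at 9.87 FPKM in wt AL, 1.68 in Ercc1 AL and 1.83 in Ercc1 DR (-2.39). The histone H4 genes Hist2h4 (-3.04) and Hist1h4d (-2.4) were lower too, and near-identical H4 genes can share reads.

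Of the 10 protein genes that lost most FPKM after centring, 5 encode nuclear, membrane or signalling proteins. Rrp9, a nucleolar protein, was at 3262 FPKM in wt AL, 1839 in Ercc1 AL and 432 in Ercc1 DR (-1.19), and Tmem38b, an ion channel, at 1158 FPKM in wt AL, 678 in Ercc1 AL and 503 in Ercc1 DR (-1.14). Tmem38b holds the small RNA gene n-R5s185, Rrp9 shares exonic sequence with the antisense gene Parp3, and Cdc25a holds Mir7089. Klf1, an erythroid factor, was at 758 FPKM in wt AL, 480.4 in Ercc1 AL and 133 in Ercc1 DR (-1.02) and Smad6, an inhibitor of BMP signals, at 546 FPKM in wt AL, 318 in Ercc1 AL and 71.8 in Ercc1 DR (-1.14). All 5, Cdc25a included, were past the threshold after centring and within it as deposited. The part of these small RNA genes in the values was not tested. The other losses were Scd1 and the plasma or lipid carriers Trf (-0.52), Apoa2 (-0.67), Fabp1 (-0.62) and Ttr (-0.69), which were inside the threshold.

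In whole liver, fewer cells of a type and less RNA per cell cannot be told apart. Of 18 sinusoidal endothelial markers 1 was lower and none higher, and 16 were below the middle gene (median -0.40, and -0.03 as deposited). Of all protein genes, 46.9% were above it. Gpr182, an endothelial receptor, was at 10.5 FPKM in wt AL, 5.29 in Ercc1 AL and 1.49 in Ercc1 DR (-1.24), which was within 2-fold as deposited, and the scavenger receptor Stab2 at -0.76 and the VEGF receptor Kdr at -0.66 were inside the threshold. The summed markers were 76.6 FPKM in wt AL and 70.2 FPKM in Ercc1 AL as deposited, and 54.4 FPKM in Ercc1 AL rescaled by the centring factor. Kupffer cell markers had none of 12 past 2-fold (median -0.08, and 0.29 as deposited). They summed to 44.3 FPKM in wt AL and 54.3 FPKM in Ercc1 AL (42.1 FPKM rescaled). Stellate cell markers had none of 11 past it (median 0.10), and summed to 38.7 FPKM in wt AL and 57.4 FPKM in Ercc1 AL (44.5 FPKM rescaled). None of 20 measured collagen and fibrosis genes was past 2-fold.

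Most markers of infiltrating blood cells were low. All 13 T cell markers were below 1 FPKM in both libraries, and 10 of 11 NK cell, 9 of 12 B cell, 8 of 11 neutrophil and 11 of 15 monocyte markers were as well. The exceptions included the B cell receptor subunit Cd79b, lower at 24.9 FPKM in wt AL, 13.3 in Ercc1 AL and 5.55 in Ercc1 DR (-1.22), while its partner Cd79a was at 0.553 and 0.686 FPKM. The plasma cell marker Sdc1, which hepatocytes also express, was at 11 and 17 FPKM (0.22). The 12 B and plasma cell markers summed to 40.3 FPKM in wt AL and 34.9 FPKM in Ercc1 AL (27.0 FPKM rescaled). The NK cell chemokine Xcl1 was lower too (1.18 to 0.311 FPKM, -1.1). The neutrophil peroxidase Mpo was at 6.41 and 3.5 FPKM (-1.09) and the calprotectin gene S100a8 at 0.657 and 1.11 FPKM (-0.02), beside the acute phase genes above. Of all protein genes, 46.9% were above the middle gene. Of 7 measured bile duct markers 6 were below the middle gene (median -0.66, and -0.30 as deposited), and the keratin Krt7 was past 2-fold (2.37 to 0.807 FPKM, -1.27). Of 7 measured erythroid markers 6 were below the middle gene (median -0.69, and -0.32 as deposited). Alas2 was higher, and Klf1 and the globin Hba-a2 (145 to 72.3 FPKM, -1.36) were lower, while the globins Hbb-b1 (-0.25) and Hbb-b2 (-0.69) were within 2-fold. Klf1, at 758 FPKM in wt AL, stood far above Hba-a2 and made up most of the 936 FPKM of the summed erythroid markers. It was within 2-fold as deposited, and whether its value comes from erythroid cells was not tested. The part of blood and bile duct cells in these values was not tested.

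The ratio was also described by gene span, the distance from start to end of the deposited locus. A longer gene offers more sites for lesions that block RNA polymerase, but the part of lesions in these ratios was not tested. Over all measured protein genes the median log2 ratio was -0.05 for spans up to 5 kb (1508 genes), 0.02 from 20 to 50 kb (2806 genes), -0.10 from 100 to 200 kb (738 genes) and -0.20 above 200 kb (379 genes), all of them above 0 as deposited. The share of genes at least 2-fold lower was highest at both ends, 8.09% up to 5 kb and 6.6% above 200 kb, beside 2.71% from 20 to 50 kb. Among genes at 5 FPKM or more in either library, the 62 genes above 200 kb had a median of -0.43 (still below 0 as deposited), with 11 lower (17.7%) and 1 higher (1.61%), and the 891 genes from 20 to 50 kb a median of 0.14, with 5.27% lower.

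Among the lower long genes, Dpyd, which breaks down pyrimidines and spans 871 kb, was at 31.7 FPKM in wt AL, 14.3 in Ercc1 AL and 23.7 in Ercc1 DR (-1.47), and Acaca of the lipogenic list spans 206 kb. Ercc1 AL was the lowest library for this pair. The others were Pkhd1, the gene of polycystic kidney and liver disease (8.48, 1.59 and 0.666 FPKM in wt AL, then Ercc1 AL, then Ercc1 DR), Exoc4, an exocyst subunit (186, 88.8 and 24.7 FPKM), the adhesion gene Ncam1 (6.36, 3.55 and 1.01 FPKM), the synaptic scaffold gene Shank2 (7.25, 3.22 and 0.956 FPKM), the ubiquitin ligase gene Rnf220 (17.3, 9.27 and 4.01 FPKM), Abca13 (28.1, 13.5 and 4.02 FPKM), Mlip (6.37, 1.17 and 0.317 FPKM), Lhfpl3 and Nedd4l. In each of these others wt AL was the highest library and Ercc1 DR the lowest. The shorter genes Csn1s2a (14.2 kb), Rrp9 (8.11 kb) and Klf1 (3.37 kb) had the same order. Without the 14 long genes at 20 FPKM or more in wt AL, the 48 remaining had a median of -0.41 with 7 lower, beside 0.18 for the 734 genes of 20 to 50 kb below the same level. Rapgef4, at 276 kb, was the higher one.

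**Figure D5:**
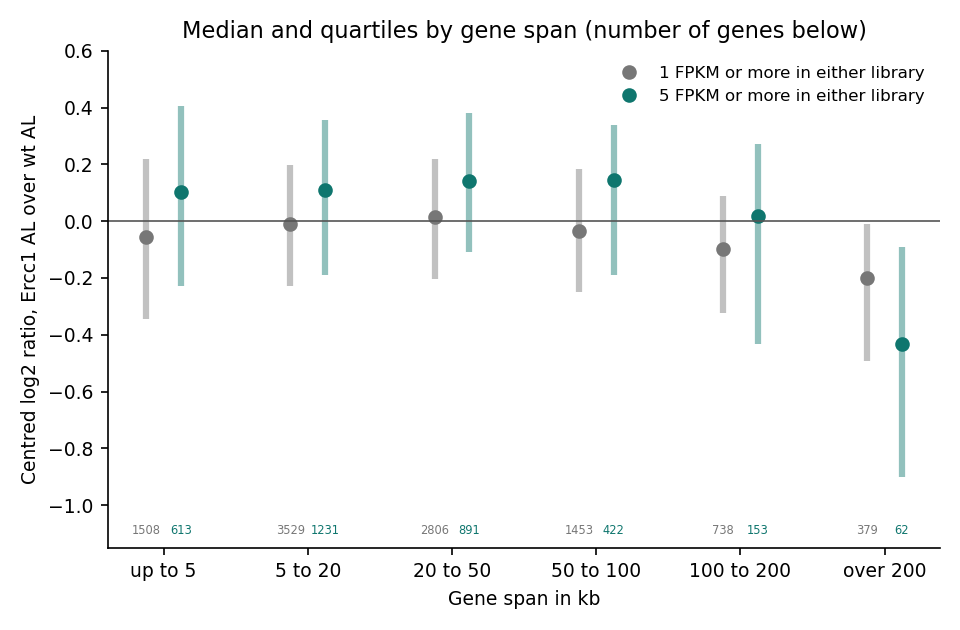
Points are medians and bars quartiles of the centred log2 ratio of Ercc1 AL over wt AL for protein genes grouped on the x axis by span in kb, at 1 FPKM or more (grey) and 5 FPKM or more (green) in either library, with the number of genes at the bottom. The medians stay between -0.10 and 0.14 up to 200 kb and lie at -0.20 and -0.43 above it, and all are 0.37 higher as deposited, which puts the grey one above 0.

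Genes that surround a targeted locus are inherited with it, so the surroundings of Ercc1 on chromosome 7 were described. Within 2 Mb, 40 protein genes were measured, with a median log2 ratio of -0.12 (above 0 as deposited), 1 higher and 1 lower. These were Dmwd (6.69 to 19.2 FPKM, 1.03) and Ccdc61 (6.32 to 3.7 FPKM, -1.01). The apolipoprotein genes of this window, Apoe (1006 and 1367 FPKM, 0.07) and Apoc1 (0.14), were near the middle gene. Medians of whole chromosomes with at least 50 measured protein genes ran from -0.08 to 0.02, and chromosome 7 itself had the lowest. The window lay below that range by a small amount. Many of its genes, among them Ercc2 and Fosb, were below 2 FPKM in both libraries. Protein genes between 1 and 2 FPKM had a median of -0.12 over the whole genome. The part of expression level in the median of the window was not tested.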

How the data were processed

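Liver total RNA depleted of ribosomal RNA was sequenced in 3 libraries, 1 per group, which were assigned to groups by their titles. The authors deposited FPKM per gene with its bounds and a status code, per the file headers, in tables of 23850 rows. Reads were placed on mm10, per the submitters' processing notes. The aligner, counter, annotation, strand use and depth were not given in the sources used here, so FPKM carries no counting interval of its own here beyond the deposited bounds, which do not cover differences between animals. Rows with the status HIDATA or FAIL were treated as missing, which left 89 symbols without an estimate in wt AL or Ercc1 AL, 36 of them official. The 494 rows of repeated symbols were reduced to 1 per symbol, leaving 23356 symbols.

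With python 3.11.15, numpy 2.4.6 and pandas 2.3.3, the log2 ratio of FPKM + 1 was centred on its median over genes at 1 FPKM or more in every library. Genes with at least 1 FPKM in wt AL or Ercc1 AL were counted as higher or lower from a 2-fold centred ratio, and no test was possible with 1 library per group. The arithmetic was tested on simulated data in which only well-expressed genes were changed, so changes of genes at low FPKM were not examined. Official symbols exclude predicted and clone-based models, small RNA genes and pseudogenes. Named genes were Ercc1 and Ercc4, the 20 highest and the 20 lowest ratios of official symbols at 5 FPKM or more in either library, the 10 with the largest gain and the 10 with the largest loss of rescaled FPKM, up to 8 members of a list and the long genes or neighbours of Ercc1 past 2-fold. Members named inside the threshold, and further ones, were chosen after their values were seen. The comparison and the lists were chosen with earlier results of these data known. Some members of the lists are counted but not reported singly here. Promoters were matched by symbol to RefSeq windows on GRCm38.p6. The alternatives were other centrings, pseudocounts, filters and symbol sets, the interval midpoint, and genes whose FPKM lies inside its own interval.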

Additional observations from a re-analysis of the deposited data

How the results depend on the processing

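The count of all genes at least 2-fold higher, 304, was 701 without centring, 188 from interval midpoints, 97 over official symbols and 38 over genes whose FPKM lies inside its own interval, the last an alternative chosen after seeing the data. The count lower, 620, was 270 without centring, 1024 with a pseudocount of 0.1, 161 with a pseudocount of 5, 344 at 5 FPKM or more and 302 inside the interval. The share higher of genes past 2-fold was 32.9%, and it was 72.2% without centring, 60.9% with a pseudocount of 5 and 11.2% inside the interval. Lower fatty acid synthesis genes, 12, were 7 without centring, 5 with a pseudocount of 5 and 7 inside the interval. Higher acute phase genes, 5, were 9 without centring and 0 inside the interval. Higher ribosomal protein genes, 3, were 22 without centring, 5 when centred on the pair, 5 with a pseudocount of 5 and 1 inside the interval. Lower female-biased genes, 4, were 1 with a pseudocount of 5, and higher male-biased genes, 9, were 1 inside the interval. The median of genes above 200 kb, -0.43, was -0.41 without those at 20 FPKM or more in wt AL, an alternative also chosen after seeing the data, and that of the neighbours of Ercc1 was -0.12 within 2 Mb and within 5 Mb. The cause of these moves was not tested, apart from the fewer genes that a filter leaves. Of 47 named genes past 2-fold, 40 stayed so in the same direction under the 6 settings tried for single genes, and the others were Amd1, Cdc25a, Klf1, Ppp1r3c, Rrp9, Smad6 and Tmem38b. Span from the length column of the tables was not run, since that column is empty. No library could be left out with 1 per group, and depth is unknown. No paired analysis was possible because each group has 1 library.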
